A study of Drosophila melanogaster with 14 samples.

Results

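RNA of the ventral lateral clock neurons (LNvs) of the fly brain, the neurons that release the neuropeptide PDF, was compared between *Atx2* RNAi and wild type at dawn. The 4 samples compared, of 14 in the series, were chosen by their labels: 2 replicates of *Atx2* RNAi of ZT0, the time of lights-on, and wild type of ZT0 and of ZT2, with 1 sample for each time. The wild-type sample of ZT0 carries the label ZT24. In both genotypes, LNvs of female flies in a w1118 background were marked with membrane GFP driven by *Pdf*-GAL4 and sorted from brains of flies kept in light and dark cycles at 25 °C on sucrose-yeast food. The RNAi flies also expressed the KK108843 hairpin against *Atx2* in these neurons, and the sources used here name no control hairpin in wild type. RNA of the sorted cells was copied into cDNA, amplified with T7 RNA polymerase, copied into cDNA again and read as single-end sequences of 50 bases.

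Ataxin-2 is an RNA-binding protein that acts on the translation, stability and granule assembly of the mRNAs it binds, and in LNvs it is known to work with its partner Tyf on the translation of the clock mRNA *per*. LNvs express peptides, peptide receptors, ion channels and adhesion proteins that connect the clock to the sleep, activity and arousal centres of the brain, and their firing and their arbors change over the day. The changes described here are those of gene families and functions other than *Atx2*, *CrebA* and the core clock genes.

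The *Atx2* RNAi samples held 10674958 and 11586874 estimated counts, against 6217170 in wild type of ZT0 and 9028330 in wild type of ZT2. Values are normalized counts, that is counts divided by the library size and its TMM factor and set to a common size, and they can be compared between samples of 1 gene but not between genes. A count of 3 is taken as the smallest that a sample can show, which is 1.92 to 3.66 normalized counts here and covers counting error only. The targeted gene *Atx2* (chromosome 3R) had 270.5 and 369 normalized counts in the RNAi samples and 1431 and 1524 in wild type of ZT0 and ZT2. The labels do not say whether replicates came from separate dissections. The p-values rest on a spread estimated within the groups of 8 samples, those compared here and those of dusk fitted with them. That spread may be technical. In wild type it includes the change from ZT0 to ZT2 and, at dusk, from ZT12 to ZT14.

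The cell type was checked by marker genes in TPM, the share of each gene among all transcripts after allowing for transcript length. *Pdf* made up 262756 and 275325 TPM in *Atx2* RNAi and 192687 and 218428 TPM in wild type, so it dominated all 4 samples, and it was not called (log2 fold change 0.73, adjusted p = 0.071 from edgeR). The genes that define other cells, *repo* and *moody* of glia, *Hml* of haemocytes and *Mhc* of muscle, were at or below 1.33 TPM in every sample, but other members of the same lists were higher or were called. In muscle, 1 of 8 tested genes was lower (*Mf*, 2.15 and 3.63 TPM against 9.97 and 13.6 TPM, log2 fold change -1.93), and the summed level of the list was 126 and 159 TPM against 177 and 151 TPM. In haemocytes, 1 of 10 was higher (*Pxn*, at least 74.3 TPM in *Atx2* RNAi against 53.2 and 51.0 TPM, 1.13). The haemocyte sums were 103 and 133 TPM in *Atx2* RNAi, above both wild-type sums. Of 8 tested fat body genes, *apolpp* was higher (7.52 and 7.6 TPM against 3.13 and 2.76 TPM, 1.66) and none was lower. The fat body sums were 26 and 26 TPM against 56.1 and 35.4 TPM. Called shares were 12.5% in the muscle and fat body lists, each from 1 gene, against 7.30% over all genes. The calls of *Mf* and *Pxn* were lost without *Atx2* RNAi replicate 2 (adjusted p 0.056 and 0.082).

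Of 18 photoreceptor genes, *ninaE*, the main rhodopsin, was lower (1.52 and 0.47 TPM against 15.7 and 9.89 TPM, log2 fold change -3.29). *eys*, described further on, was higher. These 2 calls are 11.1% of the list, against 7.30% of all genes. The photoreceptor sums were 166 and 211 against 381 and 319 TPM. Most of the wild-type sums came from *Ggamma30A*, which was not called (34.4 and 120 TPM against 293 and 246 TPM). The call of *ninaE* was lost without *Atx2* RNAi replicate 2 (adjusted p 0.072). Of 15 glial genes, 3 were lower and none was higher, against 3.62% and 3.68% of all genes. The glial sums were 114 and 105 against 376 and 342 TPM. Here *Indy* alone, described further on, made up most of the wild-type sums (12.6 and 13.5 TPM against 275 and 231 TPM). *Atx2* RNAi replicate 1 held 278 counts of the ocellar opsin *Rh2* and 227 of the arrestin *Arr2*, both at 0 in replicate 2. Replicate 2 held 1262 counts of *Gad1*, which makes GABA, against 5 in replicate 1. Of the 18 tested markers of other neurons, 1 was higher and 6 were lower in *Atx2* RNAi (38.9% called against 7.30% of all genes). Their summed level was 1060 and 1166 TPM against 3902 and 4890 TPM in wild type. These wild-type sums came mostly from *Dh31* (1553 and 1752 TPM), *NPF* (950 and 1404 TPM) and *Tbh* (942 and 1090 TPM). *Tbh* was not called. Beside *Dh31* and *NPF*, the lower markers were *VAChT*, *ChAT*, *DAT* and *Ddc*. *ChAT* had 3.14 and 11.6 TPM in *Atx2* RNAi against 52.8 and 26.7 TPM, and *DAT* 2.76 and 3.22 TPM against 18 and 19.1 TPM. *Ddc* had 41 and 71.4 TPM against 161 and 262 TPM. The higher marker was *Lim1*, with 167 and 196 TPM against 97.1 and 95.9 TPM. *Dh31* and *NPF* are described further on, so the fall of the sums is not separate from the results of these peptide genes. Without *Atx2* RNAi replicate 1 the list had 2 higher and 2 lower genes, and without replicate 2 it had 1 and 8. The part of other cells in the changes described below was not tested.

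Some genes marked the RNAi flies. *Dcr-2* (chromosome 2R, 17574979 to 17581525 in the Ensembl annotation of the BDGP6 genome build, as all positions below), the nuclease that makes small interfering RNAs, had 9283 and 8645 normalized counts in *Atx2* RNAi and 133 and 151 in wild type, a 63.2-fold higher mean (adjusted p = 1.3e-06 from edgeR). A *Dcr-2* transgene is often added to strengthen RNAi in flies, and the sources used here name none. The zinc finger genes *tsh* (2L, 21828593 to 21837011) and *tio* (2L, 22019208 to 22025734) are near neighbours, and a hairpin insertion next to *tio* is known from some lines of the KK collection. *tsh* had 273 and 227 normalized counts in *Atx2* RNAi and 0 and 3.06 in wild type, a ratio of 148 with an exact 95% counting interval of 50.6 to 722. *tio* had 158 and 220.4 against 17.1 and 58.2, and its call was lost without *Atx2* RNAi replicate 2 (adjusted p = 0.089). These 3 genes were also higher at dusk, and the part of the transgenes in the changes described below was not tested.

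Of 8643 genes tested, 631 (7.30%) were called at an adjusted p under 0.05 in the quasi-likelihood F-test of edgeR, with 318 (3.68%) higher and 313 (3.62%) lower in *Atx2* RNAi. A log2 fold change beyond 2 in size was fitted for 88 of the higher and 103 of the lower genes. In simulated data 11.54% of the calls of this fit were false, above the 0.05 that the adjustment aims for. The number called fell when a sample was left out, except for wild type of ZT0. It was 178 (1.92%) without *Atx2* RNAi replicate 1, 266 (2.89%) without replicate 2, 796 (8.42%) without wild type of ZT0 and 327 (3.56%) without wild type of ZT2. Scaling by library size alone gave 416 calls (4.81%). DESeq2 gave 865 (6.36%) on 8 samples and 700 (5.33%) on 4, and its size factors in edgeR gave 636 (7.36%). In edgeR, 457 (5.61%) were called with only the 4 samples, 597 (5.55%) with all 14 samples, 597 (8.37%) with at least 10 counts in each of the 4 samples and 1126 (8.27%) with no filter. Of the 631 calls, 412 were also made with library size alone and 626 with DESeq2. The groups of 630 called genes did not overlap, as was the case for 51.5% of all genes tested. Genes named by size of change or smallest p had to have groups that did not overlap. Statements on overlap below thus describe the called genes and add no support for a change. Of 160 genes named by rule, 60 were called with each sample left out and under every other setting that gave a value, 29 of them higher and 31 lower, and most genes described by sample below belong to these.

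**Figure D1:**
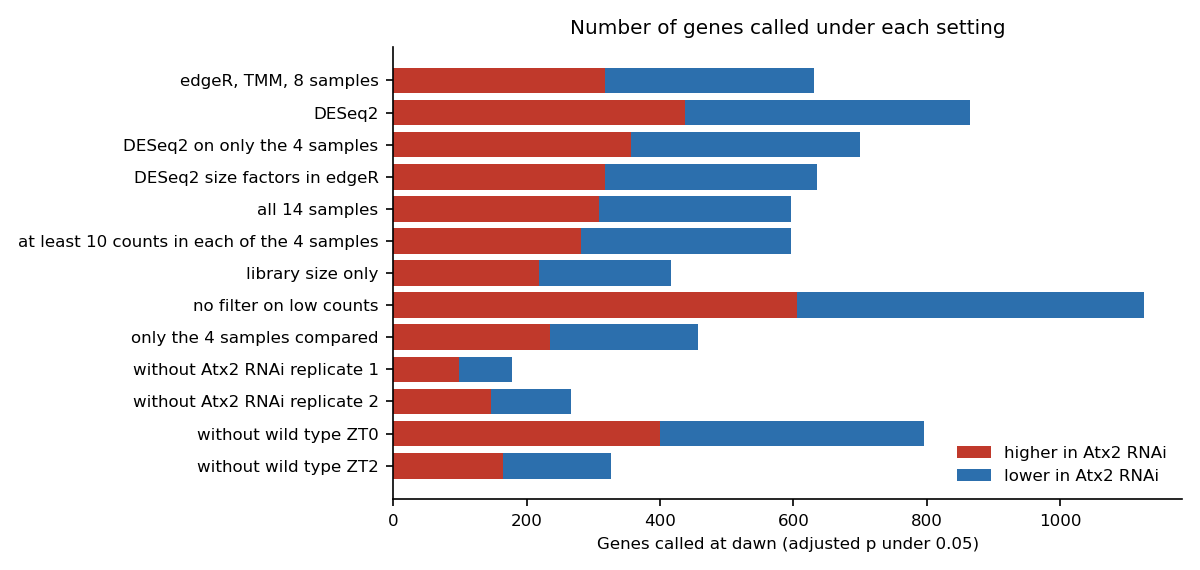
Number of genes called at dawn under each setting, split into genes higher (red) and lower (blue) in *Atx2* RNAi. Bars start at 0, and counts run from 178 without *Atx2* RNAi replicate 1 to 1126 with no filter on low counts, against 631 in the edgeR fit of 8 samples.

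The 62 functional lists held 1751 of the tested genes and 214 of the calls, and 6 lists held no called gene. Glycolysis and activity-regulated genes had the largest shares called among lists of 10 or more genes, all of them lower. Respiratory chain and mitochondrial ribosome genes were called only as higher, and early secretory genes only as lower. Receptors and surface proteins were called in both directions. These shares stand beside 7.30% over all genes and describe the lists without a test of their own.

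**Figure D2:**
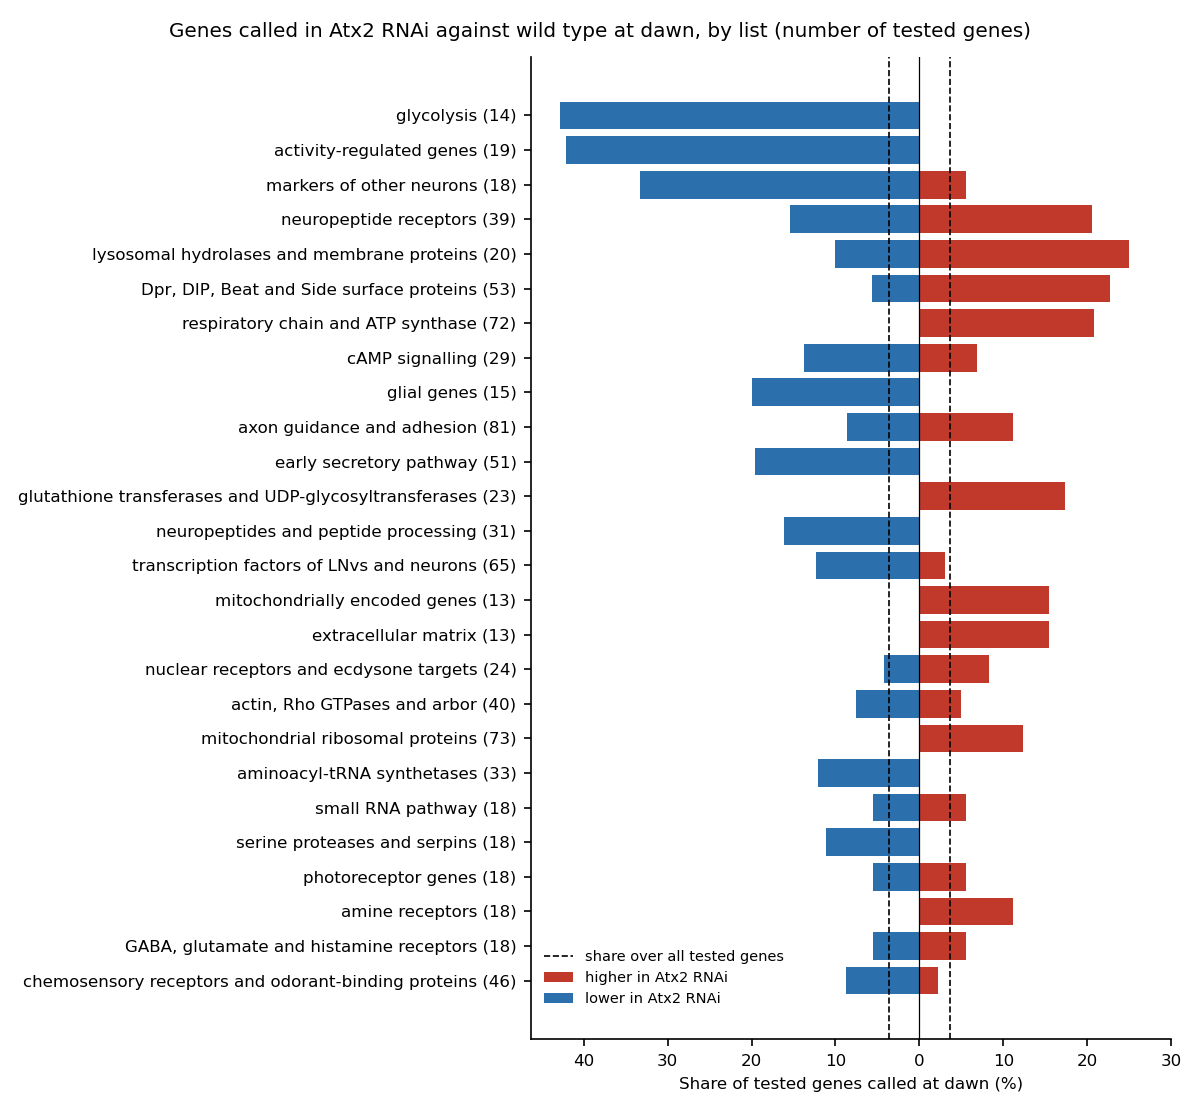
Share of the tested genes of a list that were called at dawn, with genes lower in *Atx2* RNAi to the left and higher to the right, for the 26 lists with the largest shares among those of 10 or more tested genes (number in parentheses), with the list of PDF neuron genes left out. Dashed lines mark the shares over all genes, 3.62% lower and 3.68% higher. Glycolysis has 6 of 14 and activity-regulated genes 8 of 19 lower, and the respiratory chain 15 of 72 higher.

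Neuropeptide genes were called only as lower in *Atx2* RNAi. Of 31 tested genes for peptides and their processing, 5 were lower and none was higher, against 3.62% and 3.68% of all genes, and the median log2 fold change was -0.54 against -0.01. The number lower was 3, 4, 5 and 5 without *Atx2* RNAi replicate 1, replicate 2, wild type of ZT0 and wild type of ZT2, and 1 gene was higher without wild type of ZT2.

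*Dh31* (2L, 8491868 to 8506845) encodes the diuretic hormone 31 peptide, which acts on wakefulness and temperature preference. It had 76.5 and 60.9 normalized counts in *Atx2* RNAi and 8178 and 10097 in wild type. Both RNAi samples lay far below both wild-type samples, a 133-fold lower mean (log2 fold change -7.06, standard error 0.40, adjusted p = 9e-06 from edgeR). *Dh31* and *NPF* stand among the markers of other neurons described above, whose part in these changes was not tested, and in sorted pools fewer cells of a type and less RNA per cell cannot be told apart.

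*Proc*, which encodes proctolin, a peptide that acts on muscle and neurons, had 269 and 311 normalized counts in *Atx2* RNAi and 1658 and 1705 in wild type. The replicates were close and the groups well apart, with a 5.80-fold lower mean (log2 fold change -2.53, standard error 0.23, adjusted p = 0.00012). *NPF* encodes neuropeptide F, the relative of vertebrate NPY made by part of the clock neurons. It had 516 and 281 against 1975 and 3093, again without overlap (log2 fold change -2.67, standard error 0.40, adjusted p = 0.0029). *amon*, the convertase that cuts propeptides into active peptides, had 5234 and 4942 against 12221 and 20954, a 3.26-fold lower mean. Its adjusted p was 0.006 and rose to 0.051 and 0.050 without *Atx2* RNAi replicates 1 and 2.

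The fifth call, *Mip* (myoinhibitory peptide), rested on 1 sample. It had 7904 normalized counts in wild type of ZT0, 1.02 in wild type of ZT2, and 0 and 1.28 in *Atx2* RNAi. Wild type of ZT2 thus lay within the RNAi group. Without wild type of ZT0 the adjusted p was 0.93, so these data show no change of *Mip* beyond a single sample.

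Receptors for neuropeptides changed in both directions. Of 39 tested, 8 were higher and 6 lower (35.9% called against 7.30% of all genes), with a median log2 fold change of -0.02. The counts were 5 and 3 without *Atx2* RNAi replicate 1, 4 and 3 without replicate 2, 9 and 7 without wild type of ZT0, and 4 and 4 without wild type of ZT2.

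The receptor for CCHamide-1, *CCHa1-R* (2R, 17646848 to 17665068), through which LNvs can receive signals of other clock neurons, had 12.3 and 10.2 normalized counts in *Atx2* RNAi and 3260.4 and 1179 in wild type. Wild type was high at both times and the RNAi samples were near the bottom of the scale, a 197-fold lower mean (log2 fold change -7.61, standard error 0.53, adjusted p = 2.5e-05). The pyrokinin receptor gene *PK2-R1* had 2.47 and 2.56 against 137 and 79.6 (log2 fold change -5.35, standard error 0.72, adjusted p = 0.0017). *FMRFaR*, the FMRFamide receptor, had 15.6 and 8.97 against 172 and 132 (log2 fold change -3.63, standard error 0.39, adjusted p = 0.00046). None of these groups overlapped. The other lower receptor genes were *sNPF-R*, *ETHR* and *TkR86C*, and each lost its call without *Atx2* RNAi replicate 1, replicate 2 or wild type of ZT2, with adjusted p from 0.056 to 0.36.

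The 2 receptor genes of the cholecystokinin type were called as higher. *CCKLR-17D1*, a receptor for drosulfakinins, which act on satiety, had 84.7 and 94.8 normalized counts in *Atx2* RNAi and 2.44 and 5.10 in wild type. The RNAi samples lay well above both wild-type samples, a 23.8-fold higher mean (log2 fold change 4.50, standard error 0.61, adjusted p = 0.0017). Its relative *CCKLR-17D3* was also higher, with a log2 fold change of 2.42. The remaining higher members were the tachykinin receptor *TkR99D* (3.26), the allatostatin C receptor *AstC-R1* (2.40), the myosuppressin receptor *MsR1* (1.86), the receptor *SPR* (1.76) for sex peptide and myoinhibitory peptides, *CG13229* (1.72) and *Pdfr* (1.68), all on the log2 scale. Of these, *TkR99D*, *MsR1* and *SPR* were called with each sample left out. *CCKLR-17D3*, *AstC-R1* and *CG13229* were not called without *Atx2* RNAi replicate 2 or without wild type of ZT2.

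*Pdfr*, the receptor through which clock neurons sense PDF itself, had 2646 and 2677 normalized counts in *Atx2* RNAi and 1224 and 437 in wild type. The wild-type pair differed more than the RNAi pair. Its adjusted p of 0.027 moved to 0.10, 0.091 and 0.067 without *Atx2* RNAi replicate 1, replicate 2 and wild type of ZT2, and to 0.067 with scaling by library size alone.

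Among 18 receptors for amines, 2 were higher (11.1% called against 7.30% of all genes). *Dop1R2*, a dopamine receptor known from arousal and memory, had 774 and 606 normalized counts in *Atx2* RNAi and 222 and 156 in wild type (log2 fold change 1.87, standard error 0.26, adjusted p = 0.0019). *5-HT1A*, a serotonin receptor that acts on sleep, had 1485 and 1319 against 407 and 124 (log2 fold change 2.41, standard error 0.54, adjusted p = 0.022). Neither gene's groups overlapped, and the call of *5-HT1A* was lost without *Atx2* RNAi replicate 1, replicate 2 or wild type of ZT2 (adjusted p 0.086, 0.055 and 0.088).

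**Figure D3:**
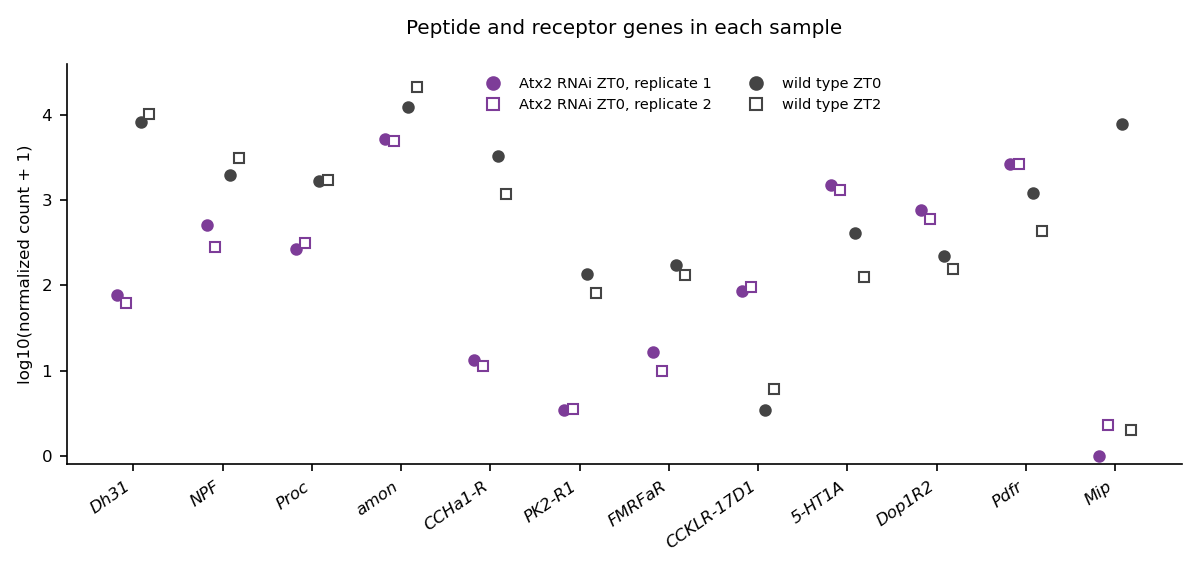
Peptide, processing and receptor genes in each of the 4 samples, as log10 of the normalized count plus 1, with *Atx2* RNAi in purple and wild type in grey, circles for replicate 1 or ZT0 and open squares for replicate 2 or ZT2. *Dh31* lies at 76.5 and 60.9 normalized counts in *Atx2* RNAi and at 8178 and 10097 in wild type, *CCKLR-17D1* runs the other way, and *Mip* is high in 1 wild-type sample alone.

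In the list of activity-regulated genes, those taken here as induced by neuronal activity, calls were only lower. Of 19 tested, 8 were lower and none was higher, against 3.62% and 3.68% of all genes. The median log2 fold change was -0.94, and 2 of the 19 lay above 0. Among the members not called were *Hr38*, *sr*, *kay* and *cbt*, with log2 fold changes of -0.44, -0.46, -0.64 and -0.13. Leaving out each sample in turn gave 5 lower genes without *Atx2* RNAi replicate 1, 4 without replicate 2, 9 without wild type of ZT0 (with 1 higher) and 6 without wild type of ZT2.

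*Arc1* (2R, 14357927 to 14360297), a retrotransposon-derived gene whose protein forms capsids that carry RNA across synapses, had 8.22 and 4.48 normalized counts in *Atx2* RNAi and 5261 and 1576 in wild type, a 538-fold lower mean (log2 fold change -9.08, standard error 1.42, adjusted p = 0.004). Its neighbour and paralog *Arc2* (2R, 14361924 to 14362825) had 3.29 and 0.64 against 78.0 and 59.2 (log2 fold change -5.12, standard error 0.85, adjusted p = 0.0052). Both were nearly lost from the RNAi samples, and reads that the paralogs share were divided between them by estimate.

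*CG13055* had 31.2 and 51.9 normalized counts in *Atx2* RNAi and 364 and 527 in wild type (log2 fold change -3.41, standard error 0.38, adjusted p = 0.00056). *meng*, which encodes a kinase that acts with CrebB in memory, had 339.6 and 327 against 2857 and 7391 (log2 fold change -3.94, standard error 0.47, adjusted p = 0.00091). Wild type held more at ZT2 than at ZT0 for both genes, and both wild-type values exceeded the RNAi values. The other lower members were the apolipoprotein D relative *NLaz*, the bZIP factors *Atf3* and *CrebB*, and the translation inhibitor *Thor*, with log2 fold changes of -3.03, -1.72, -1.40 and -1.28. All 4 lost the call without *Atx2* RNAi replicate 2 (adjusted p of 0.079, 0.077, 0.13 and 0.076). *NLaz*, *CrebB* and *Thor* also lost it without replicate 1 (0.20, 0.11 and 0.076), and *NLaz* and *CrebB* without wild type of ZT2 (0.20 and 0.094).

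In the cAMP pathway, which carries PDF receptor signals, 4 of 29 genes were lower and 2 higher, against 3.62% and 3.68% of all genes, with a median log2 fold change of -0.07. The catalytic and regulatory subunits of protein kinase A, *Pka-C1* and *Pka-R1*, and the adenylyl cyclase *Ac76E* had log2 fold changes of -1.41, -1.03 and -1.80, and *CrebB* was the fourth. The phosphodiesterase genes *Pde1c* and *Pde9*, whose products break down cyclic nucleotides, had log2 fold changes of 1.78 and 1.28. *Pde1c* had 928 and 1428 normalized counts in *Atx2* RNAi and 271 and 415 in wild type, without overlap, and stayed called in every setting (adjusted p = 0.004). Of the others, *Pka-C1*, *Pka-R1*, *Ac76E* and *Pde9* each lost the call without *Atx2* RNAi replicate 2, with adjusted p of 0.12, 0.18, 0.051 and 0.098.

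Cell surface proteins by which neurons recognise partners were called more often as higher. Of 53 genes of the Dpr, DIP, Beat and Side families of immunoglobulin proteins, 12 were higher and 3 lower (28.3% called against 7.30%), with a median log2 fold change of 0.21. The number higher was 4 without *Atx2* RNAi replicate 1, 8 without replicate 2, 9 without wild type of ZT0 and 10 without wild type of ZT2, and the number lower was 1, 3, 3 and 1.

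*dpr8* had 2270.4 and 2326 normalized counts in *Atx2* RNAi and 308 and 374 in wild type (log2 fold change 2.75, standard error 0.22, adjusted p = 7.3e-05). *DIP-kappa* had 1275 and 994 against 269 and 155 (log2 fold change 2.42, standard error 0.39, adjusted p = 0.0047), and *dpr1* had 2678 and 2128 against 701 and 419 (log2 fold change 2.10, standard error 0.27, adjusted p = 0.0014). The groups did not overlap in any of the 3 genes, and wild type of ZT2 was lower than wild type of ZT0 in *DIP-kappa* and *dpr1*. *DIP-theta* ran the other way, with 32.1 and 4.48 in *Atx2* RNAi and 302 and 212 in wild type (log2 fold change -3.86, standard error 0.61, adjusted p = 0.0043). The rest of the higher members were *dpr2*, *DIP-delta*, *beat-VII*, *dpr15*, *dpr12*, *dpr21*, *dpr4*, *side-VIII* and *side-VI*, with log2 fold changes from 2.03 down to 0.91, and the lower ones were *dpr6* (-1.52) and *side-IV* (-1.24). Of these 11, *dpr2* alone was called with each sample left out.

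Other genes of axon guidance and adhesion were divided, with 9 of 81 higher and 7 lower (19.8% called against 7.30% of all genes). *bdl*, an immunoglobulin protein of photoreceptor axons, had 282 and 313 normalized counts in *Atx2* RNAi and 7.31 and 11.2 in wild type, a 32.1-fold higher mean (adjusted p = 8.9e-05). *Con* (connectin), a homophilic adhesion protein, had 625 and 785 against 2174 and 4881 (log2 fold change -2.32, adjusted p = 0.0029). *rst* (roughest) had 66.6 and 48.7 against 401 and 1300.1 (log2 fold change -3.89, adjusted p = 0.0017). In the last 2 genes wild type exceeded the RNAi samples more at ZT2 than at ZT0. The Slit receptor *robo3* followed the same order, with 387 and 255 against 898 and 3825, but its adjusted p of 0.022 was 0.097, 0.14 and 0.15 without *Atx2* RNAi replicate 1, replicate 2 and wild type of ZT2.

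An actin-binding protein gene had no count in wild type. *Unc-115b* (3R, 9687060 to 9692775), a homolog of the worm axon guidance protein UNC-115, had 272 and 127 normalized counts in *Atx2* RNAi and none in either wild-type sample, which is at least 54.6-fold higher against the floor of 3 counts in a sample (adjusted p = 0.0011). Its neighbour *Unc-115a* (3R, 9694386 to 9705417) had 851 and 799.6 against 2913 and 3508 (log2 fold change -1.96, standard error 0.22, adjusted p = 0.00051). The paralogs thus moved in opposite directions, with no overlap of groups in either, and the estimate that divides shared reads between them could not be checked here.

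Of 47 genes of synaptic vesicle release, 1 was higher and 4 were lower, against 3.68% and 3.62% of all genes. *Fife*, a Piccolo-RIM relative that organises the active zone, had 4189.7 and 3373 normalized counts in *Atx2* RNAi and 375 and 487 in wild type. Every RNAi value was far above every wild-type value, an 8.77-fold higher mean (log2 fold change 3.13, standard error 0.25, adjusted p = 7e-05). *Rab3*, the GTPase of synaptic vesicles, had 2033 and 1618 against 4181 and 6387 (log2 fold change -1.53, standard error 0.24, adjusted p = 0.0043). The lower genes *VAChT*, *AP-2alpha* and *comt* lost their calls without *Atx2* RNAi replicate 1 (adjusted p 0.098, 0.062 and 0.33). *VAChT* loads acetylcholine into vesicles and is itself a marker of other neurons, with 50.2 and 206 normalized counts in *Atx2* RNAi and 384 and 594 in wild type.

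Nuclear genes for the energy metabolism and ribosomes of mitochondria were called only as higher. Of 72 genes of the respiratory chain and ATP synthase, 15 were higher and none was lower, 66 had a log2 fold change above 0, and the median was 0.59, against -0.01 and 49.2% above 0 over all genes. Of 73 genes of the mitochondrial ribosome, 9 were higher and none was lower, 69 lay above 0 and the median was 0.68. The counts depended on the samples: the respiratory chain had 1, 3, 27 and 4 higher genes, and the mitochondrial ribosome 2, 4, 20 and 3, without *Atx2* RNAi replicate 1, replicate 2, wild type of ZT0 and wild type of ZT2, with no gene lower in any of these. Scaling by library size alone left 4 higher genes in each list. The medians stayed above 0 in all of these settings, between 0.32 and 0.97.

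*ND-AGGG*, a subunit of complex I, had 7867 and 5691 normalized counts in *Atx2* RNAi and 1943 and 1933 in wild type (log2 fold change 1.81, standard error 0.25, adjusted p = 0.0019). *UQCR-11*, a subunit of complex III, had 2080.4 and 1560.0 against 702 and 601 (log2 fold change 1.48, adjusted p = 0.0052, and 0.055 without *Atx2* RNAi replicate 1). Beside the complex I subunits *ND-18*, *ND-MLRQ*, *ND-15*, *ND-MWFE*, *ND-B17.2*, *ND-B14* and *ND-B14.7*, the higher genes were *ox* and *UQCR-6.4* of complex III, *COX7C*, *COX5B* and the copper carrier *Cox17* of complex IV, and *ATPsynCF6* of the ATP synthase, with log2 fold changes between 0.80 and 1.47. None of the 15 but *ND-AGGG* was called without *Atx2* RNAi replicate 1. Calls were thus spread over complexes I, III, IV and V.

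In the mitochondrial ribosome, *mRpS21* of the small subunit had 282 and 240.2 normalized counts in *Atx2* RNAi and 45.1 and 37.8 in wild type (log2 fold change 2.66, standard error 0.35, adjusted p = 0.0014). *mRpL24* of the large subunit had 674 and 629.8 against 190.1 and 174 (log2 fold change 1.84, standard error 0.23, adjusted p = 0.001). Both kept their calls with each sample left out. The other 7 called genes, all of the large subunit, had log2 fold changes from 0.88 to 1.53, and none of the 7 was called without *Atx2* RNAi replicate 1 (adjusted p from 0.052 to 0.19). Of 13 genes of the mitochondrial genome, *mt:ND1* and *mt:ND2* were called, with log2 fold changes of 1.14 and 1.03, and 12 of the 13 lay above 0 with a median of 0.66. No mitochondrial genome gene was called without *Atx2* RNAi replicate 1 or without wild type of ZT0, while 3 and 4 were called without replicate 2 and without wild type of ZT2. Of 33 genes of mitochondrial dynamics and quality control none was called.

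Cytosolic ribosomal proteins had a median log2 fold change of 0.46 with 78 of 87 above 0, but their calls, 5 higher and 1 lower (6.90%), were near the 7.30% of all genes. The higher genes were *RpL41*, *RpL23*, *RpLP2*, *RpS29* and *RpL15*, with log2 fold changes from 1.37 to 0.71, and the lower one was *RpS15Ab* (-1.35), a second copy of a ribosomal gene that shares reads with its partner. The number higher was 0, 1, 11 and 1 with the samples left out in the order given above.

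Transcript length moved with these lists. Over all genes, the 2161 genes with the shortest transcripts, those of 162 to 1262 bases, had a median log2 fold change of 0.29, with 141 genes higher and 51 lower, against medians of -0.06, -0.14 and -0.05 in the 3 groups of longer transcripts, each of a like number of genes. The shortest group held 97.7% of the cytosolic ribosomal genes, 87.7% of the mitochondrial ribosomal genes and 81.9% of the respiratory chain genes. Within that group, the medians were 0.46, 0.74 and 0.66. Outside it, 9 mitochondrial ribosomal and 13 respiratory chain genes had medians of 0.33 and 0.18. The part of transcript length in the values of these lists was not tested.

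Genes of the early secretory pathway, which moves proteins into the endoplasmic reticulum and on to the Golgi, were called only as lower. Of 51 tested, 10 were lower and none was higher, against 3.62% and 3.68% of all genes, 8 lay above 0, and the median log2 fold change was -0.42. The number lower was 1 without *Atx2* RNAi replicate 1, 3 without replicate 2, 16 without wild type of ZT0 and 3 without wild type of ZT2, and scaling by library size alone gave 4. In other fly tissues these genes are known targets of the transcription factor CrebA.

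*Sec31*, of the outer coat of COPII vesicles that leave the endoplasmic reticulum, had 211 and 237 normalized counts in *Atx2* RNAi and 596 and 768 in wild type. The groups lay well apart in this gene, which kept its call with each sample left out (log2 fold change -1.61, standard error 0.22, adjusted p = 0.0018). The coat of COPI vesicles, which return proteins from the Golgi, gave the calls *gammaCOP*, *beta'COP* and *betaCOP*. *gammaCOP* had 249 and 279 against 566 and 672 (log2 fold change -1.23, standard error 0.21, adjusted p = 0.0056, and 0.073 without *Atx2* RNAi replicate 1). *beta'COP* had 179 and 186 against 333 and 598 and *betaCOP* 124 and 221 against 321 and 508, and both lost the call without *Atx2* RNAi replicate 1 (adjusted p 0.12 and 0.27) and without wild type of ZT2 (0.10 and 0.21). The other lower genes were *TRAM*, *SrpRbeta*, *Sec61beta*, *Sec23*, *Surf4* and *SsRbeta*, of the translocon, the signal recognition particle receptor and the vesicle coat and cargo machinery, with log2 fold changes between -1.17 and -0.83. The median was -0.17 for its 21 genes in the group of shortest transcripts and -0.74 for the other 30. The part of transcript length was not tested. None of the 9 lower genes other than *Sec31* was called without *Atx2* RNAi replicate 1.

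Among 26 genes of folding in the endoplasmic reticulum and the unfolded protein response, the chaperone *Gp93* was lower (log2 fold change -0.89, adjusted p = 0.032) and the prolyl isomerase *Fkbp14* higher (log2 fold change 1.14, adjusted p = 0.0088). These 2 calls are 7.69% of the list, near the 7.30% of all genes. *Gp93* lost its call with any 1 sample left out (adjusted p from 0.061 to 0.27), and *Fkbp14* without *Atx2* RNAi replicate 2 (0.062). Of 33 aminoacyl-tRNA synthetases, which charge tRNAs, *AlaRS*, *GluProRS*, *LeuRS* and *GluRS-m* were lower (12.1% called), with log2 fold changes from -1.44 to -1.05, while the median of the list was 0.04. None of the 4 was called without *Atx2* RNAi replicate 1, without replicate 2 or without wild type of ZT2.

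**Figure D4:**
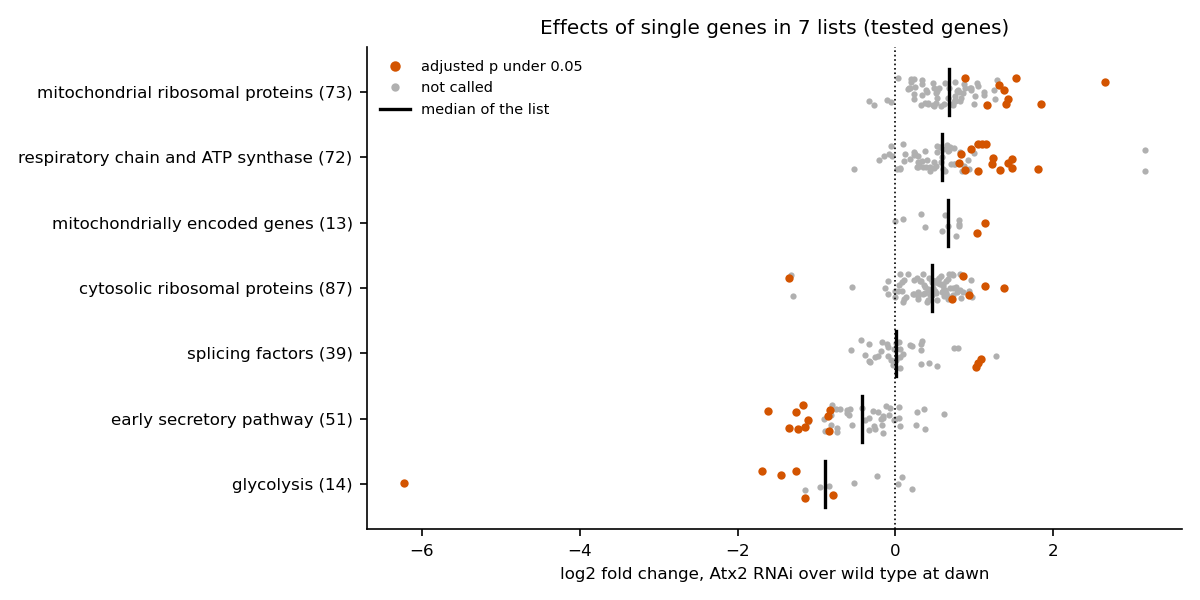
Log2 fold change of each tested gene in 7 lists (number of genes in parentheses), with called genes in orange, other genes in grey and the median as a black bar. The medians are 0.68 for the mitochondrial ribosome, 0.59 for the respiratory chain, 0.66 for the mitochondrial genome, 0.46 for the cytosolic ribosome, 0.01 for splicing factors, -0.42 for the early secretory pathway and -0.90 for glycolysis, where the point near -6 is *Ldh*.

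Enzymes of glycolysis were called only as lower in *Atx2* RNAi. Of 14 tested, 6 were lower and none was higher, against 3.62% and 3.68% of all genes, and the median log2 fold change was -0.90. The number lower was 3, 4, 6 and 6 without *Atx2* RNAi replicate 1, replicate 2, wild type of ZT0 and wild type of ZT2.

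*Ldh* (3L, 6259105 to 6262694), lactate dehydrogenase, which turns pyruvate into lactate, had 5.76 and 1.28 normalized counts in *Atx2* RNAi and 202 and 306 in wild type, a 72.3-fold lower mean (log2 fold change -6.22, standard error 0.53, adjusted p = 9.2e-05). The aldolase gene *Ald1* had 2664 and 3062 against 8536 and 9912 (log2 fold change -1.69, standard error 0.22, adjusted p = 0.0014). *Gapdh2*, glyceraldehyde-3-phosphate dehydrogenase, had 1409 and 1275 against 4092 and 3231 (log2 fold change -1.45, standard error 0.23, adjusted p = 0.0043). These 3 genes had groups far apart and kept their calls with each sample left out. *Pgi*, *Eno* and *Pfk*, which act above and below the aldolase step, had log2 fold changes of -1.26, -1.14 and -0.79, and each lost its call without *Atx2* RNAi replicate 1 (adjusted p 0.13, 0.052 and 0.15).

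Some transporters of metabolites were called, in both directions. *Indy* (3L, 18828632 to 18846267), a plasma membrane carrier of citrate whose loss of function is known to extend fly life span, had 185 and 182 normalized counts in *Atx2* RNAi and 2857 and 2636 in wild type, a 15-fold lower mean (log2 fold change -3.90, standard error 0.27, adjusted p = 2.5e-05). *MFS3*, of the major facilitator family, had 110.2 and 117 against 785 and 1020.5 (log2 fold change -2.99, standard error 0.26, adjusted p = 9.2e-05). *sea* (scheherazade), the citrate carrier of the mitochondrial inner membrane, ran the other way with 501 and 441 against 48.8 and 50, a 9.53-fold higher mean (log2 fold change 3.25, standard error 0.27, adjusted p = 8.9e-05). The citrate carriers of the plasma membrane and of mitochondria thus changed in opposite directions. *MFS3* and *sea* are not in the list of solute carriers given below.

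*Indy* also stands in the list of glial genes, with 12.6 and 13.5 TPM in *Atx2* RNAi and 275 and 231 TPM in wild type. The other lower members of that list were *Gli* (0.467 and 0.382 TPM against 3.14 and 4.48 TPM, log2 fold change -2.76) and *svp* (0.195 and 1.10 TPM against 5.16 and 7.56 TPM, -3.19). Both lost the call without *Atx2* RNAi replicate 1 (adjusted p 0.15 and 0.13), and the part of glia in the change of *Indy* was not tested. Of 44 solute carriers for sugars, amino acids and metals, 4 were lower and none was higher (9.09% called, near the 7.30% of all genes), among them the amino acid transporter *JhI-21*, with 162 and 119 normalized counts in *Atx2* RNAi and 536 and 2201 in wild type. Its adjusted p of 0.011 was 0.063, 0.082 and 0.057 without *Atx2* RNAi replicate 1, replicate 2 and wild type of ZT2.

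Lysosomal genes were called in both directions, 5 of 20 higher and 2 lower, against 3.68% and 3.62% of all genes. The *GILT* genes encode relatives of a thiol reductase of the mammalian lysosome. *GILT3* (3R, 23677358 to 23678421) had 719 and 529 normalized counts in *Atx2* RNAi and 2.44 and 7.14 in wild type, a 130-fold higher mean (log2 fold change 6.94, standard error 0.43, adjusted p = 1.2e-05). Its neighbour *GILT2* (3R, 23678895 to 23679855) had 104.4 and 132 against 0 and 5.10 (log2 fold change 5.37, standard error 0.63, adjusted p = 0.00069). *GILT1*, on 3R at 13398526 to 13401862, had 164 and 151 against 786 and 692 (log2 fold change -2.23, standard error 0.23, adjusted p = 0.00028). Hence the 2 adjacent family members were higher and the distant one lower, and none of the groups overlapped. *Npc2a*, a sterol-binding lysosomal protein, had 2285 and 2415 against 741 and 426 (log2 fold change 2.01, standard error 0.32, adjusted p = 0.0043).

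Detoxification enzymes that conjugate glutathione or sugar were called as higher only, 4 of 23 against 3.68% of all genes, while the median log2 fold change of the list was 0.04. *GstS1* had 339 and 256 normalized counts in *Atx2* RNAi and 35.4 and 45.9 in wild type (log2 fold change 2.86, standard error 0.31, adjusted p = 0.00041), and *GstO3* had 367 and 304 against 57.3 and 38.8 (log2 fold change 2.81, standard error 0.36, adjusted p = 0.0012). *Gclc*, which makes the first step of glutathione synthesis, had 2464 and 1612 against 782 and 504 (log2 fold change 1.66, standard error 0.27, adjusted p = 0.0049). Groups did not overlap in any of these 3 genes. Cytochrome P450 genes, given below, had 5.71% called, against 7.30% of all genes. Without *Atx2* RNAi replicate 1, replicate 2 or wild type of ZT2 the list of conjugating enzymes kept 2 higher genes. Of 35 cytochrome P450 genes, *Cyp4p2* and *Cyp4d2* were lower and none was higher, and neither was called without *Atx2* RNAi replicate 1 (adjusted p 0.060 and 0.23).

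Further large changes were found in genes of varied function. *Cht6* (X, 10016845 to 10050803), a chitinase, had 761 and 909 normalized counts in *Atx2* RNAi and 19.5 and 10.2 in wild type, a 56.2-fold higher mean (adjusted p = 0.00012). *Dtg*, a target of Dpp signalling in the embryo, had 114 and 216 against 2.44 and 2.04 (adjusted p = 0.00012), and the chorion gene *Cp7Fb* had 204.8 and 201 against 7.31 and 7.14 (adjusted p = 7.3e-05). *eys*, which encodes an extracellular matrix protein of photoreceptors and mechanosensory organs, had 1034 and 1149 against 213 and 193 (log2 fold change 2.43, standard error 0.24, adjusted p = 0.00028). Both RNAi samples were above both wild-type samples in all 4 genes, and 630 of the 631 called genes had groups without overlap.

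Some genes were close to absent from wild type. *mthl8*, a Methuselah-like receptor, had 127 and 149.9 normalized counts in *Atx2* RNAi and 0 and 2.04 in wild type, a ratio of 126 with an exact 95% counting interval of 34.7 to 1045. *BBS9*, of the Bardet-Biedl complex that carries membrane proteins to cilia, had 141 and 83.3 against 2.44 and 0, a ratio of 97.9 with an interval of 26.9 to 812. The adjusted p was 0.00028 for *mthl8* and 0.00046 for *BBS9*, which was the only called gene among 23 of the cilium and basal body.

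Others were close to absent from *Atx2* RNAi. *c-cup* (2L, 1831627 to 1832565) had 0.82 and 0 normalized counts in *Atx2* RNAi and 466 and 479.6 in wild type, a ratio of 1314 with an exact 95% counting interval of 235 to 51966 (adjusted p = 1.2e-05). *run* (runt), a transcription factor gene, had 0 and 1.28 against 87.8 and 132, a ratio of 155 with an interval of 42.4 to 1289, and its adjusted p of 0.0057 was 0.051 without *Atx2* RNAi replicate 1. *SkpB*, a relative of the Skp1 subunit of ubiquitin ligases, had 1.64 and 0 against 152 and 51.0, a ratio of 135 with an interval of 36.8 to 1123 (adjusted p = 0.0055). *nxf2*, which acts in the silencing of transposons by piRNAs in the ovary, had 8.22 and 7.69 against 134 and 183 (log2 fold change -4.30, standard error 0.46, adjusted p = 0.00039). The odorant receptor gene *Or63a* had 4.11 and 1.28 against 117 and 129 (log2 fold change -5.52, standard error 0.66, adjusted p = 0.00089). Each of these 5 genes was present in wild type at both times.

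Transcription factors of LNvs and other neurons were more often lower, with 8 of 65 lower and 2 higher, against 3.62% and 3.68% of all genes, and a median log2 fold change of -0.32, counting *CrebA* as lower and the clock gene *Pdp1* as higher. The number lower was 4, 8, 8 and 5 with the samples left out in the order given above. *mamo*, a zinc finger protein, had 7722 and 7403 normalized counts in *Atx2* RNAi and 21466 and 37968 in wild type (log2 fold change -1.97, standard error 0.27, adjusted p = 0.0017). *tup* (tailup), a LIM-homeodomain protein of neuronal identity, had 17.3 and 4.48 against 137 and 93.9 (log2 fold change -3.43, standard error 0.59, adjusted p = 0.0061). *Kr* (Krüppel), a zinc finger protein known from the embryo, is not a member of this list. It had 76.5 and 71.1 against 436 and 410.2 (log2 fold change -2.52, standard error 0.24, adjusted p = 0.00016). The RNAi samples lay below wild type in all 3 genes. In the list, *ap* was lower (log2 fold change -1.88) and *Lim1* higher (1.25), and *Atf3* and *CrebB* are given above. *Mondo* and *Myc*, related helix-loop-helix factors of sugar response and growth, were also lower, with log2 fold changes of -1.59 and -1.12, and both lost the call without *Atx2* RNAi replicate 1, replicate 2 or wild type of ZT2 (adjusted p from 0.059 to 0.14).

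Stress and motor genes gave few calls. The shares called were 5.71% of 35 genes of JNK, apoptosis and DNA damage, 8.70% of 23 motor genes and 4.55% of 22 autophagy genes. These are near the 7.30% of all genes. Of 33 heat shock proteins and chaperonins, 2 were higher (6.06% called, near the 7.30% of all genes), *Hsp70Bbb* and *Hsc70-2*. The adjusted p of *Hsc70-2* was 0.043 from edgeR, close to the threshold. *Hsp70Bbb* had 587 and 1379 normalized counts in *Atx2* RNAi and 154 and 126 in wild type (log2 fold change 2.82, standard error 0.42, adjusted p = 0.0029), and it shares reads with near-identical copies. The proapoptotic gene *hid* had 187 and 133 against 24.4 and 32.7 (log2 fold change 2.48, standard error 0.36, adjusted p = 0.0023). The other call of its list, *Diap2*, was lower (log2 fold change -0.78). The dynein heavy chain *Dhc64C*, the motor of transport towards the cell body, had 339.6 and 336 against 980.0 and 1006 (log2 fold change -1.56, standard error 0.19, adjusted p = 0.0011). The other called motor gene, *BicD*, was higher (log2 fold change 0.83). The autophagy gene *Atg10* had 160.3 and 145 against 542 and 511 (log2 fold change -1.79, standard error 0.25, adjusted p = 0.002). None of these groups overlapped.

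Groups close to the known work of *Atx2* on RNA gave few calls. The shares called were 4.76% of partners and granule proteins, 2.17% of translation factors and 7.69% of splicing factors, against 7.30% of all genes. Of 21 genes for its partners and RNA granule proteins, *tyf* alone was called (log2 fold change -1.65, adjusted p = 0.037), and its call was lost without *Atx2* RNAi replicate 1, replicate 2 or wild type of ZT2 (adjusted p from 0.13 to 0.25). *tyf* had 1576 and 1889 normalized counts in *Atx2* RNAi and 2942 and 7901 in wild type. None of 11 CCR4-NOT deadenylase genes was called, with a median log2 fold change of -0.17. Of 46 translation factors, *eIF3k* was higher (log2 fold change 1.25), and of 39 splicing factors the small nuclear ribonucleoprotein genes *SmD2*, *SmE* and *snf* were higher (1.08, 1.05 and 1.02), all 4 lost without *Atx2* RNAi replicate 1, with adjusted p from 0.060 to 0.18.

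Ion channels were near the background. Of 22 potassium channel genes, *Irk1* was higher (log2 fold change 1.41), which is 4.55% called against 7.30% of all genes. Of 25 genes for sodium, calcium and leak channels, *Ca-alpha1T* was higher (1.05) and the sodium channel partner *Teh4* lower (-1.40), also near 7.30%. With each sample left out in turn, log2 fold changes ran from 1.19 to 1.67 for *Irk1* and from 0.65 to 1.38 for *Ca-alpha1T*. For *Teh4* they ran from -1.61 to -1.14. None of 9 nicotinic acetylcholine receptor genes, 8 synaptotagmins, 19 genes of the vacuolar proton pump and 9 ABC transporters was called. With 2 samples a group, these counts do not show that such genes were unchanged.

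The dusk samples, 2 of *Atx2* RNAi at ZT12 against wild type of ZT12 and ZT14, are not among the samples compared at dawn. Both comparisons came from 1 fit, with 1 estimate of the spread for each gene, so calls shared between the times are not independent. At dusk, 590 genes (6.83%) were called, 279 (3.23%) higher and 311 (3.60%) lower. Of the 318 genes higher at dawn, 125 were also called higher at dusk, and of the 313 lower at dawn, 121 were called lower. The glycolysis list had 6 lower genes at dusk, 5 of them the same as at dawn, and the lysosomal list had 4 higher and 1 lower, all 5 the same as at dawn. *Fife*, *bdl*, *GILT3*, *Arc1*, *Proc* and *Indy* were called in the same direction at both times, with dusk log2 fold changes of 3.10, 4.09, 5.82, -9.96, -2.56 and -3.26. Mitochondrial ribosomal and respiratory chain genes had 6 and 5 higher genes at dusk and none lower. The early secretory pathway had 6 higher genes and none lower at dusk, with a median log2 fold change of 0.36 against -0.42 at dawn.

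The difference between the dawn and dusk effects was tested as an interaction and called for 64 genes (0.740%), 42 of which were also called at dawn. It was called for 4 of the 19 activity-regulated genes and for 1 of the 51 early secretory genes. *Dh31*, lower at both times, had a log2 fold change of -7.06 at dawn and -2.21 at dusk (adjusted p of the difference 0.001). *meng* was -3.94 at dawn and 2.20 at dusk (0.002), *MFS3* -2.99 and -0.16 (0.0055), and *Cht6* 5.83 and 1.76 (0.030). *CCHa1-R* was -7.61 at dawn and -2.11 at dusk, but this difference was not called (adjusted p 0.14). Its dusk value rests on few counts, with 18.2 and 11.4 normalized counts in wild type and 4.40 and 2.53 in *Atx2* RNAi. The floor of 3 counts is 4.40 and 3.79 in these RNAi samples, so little of this gene was left to change at dusk.

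**Figure D5:**
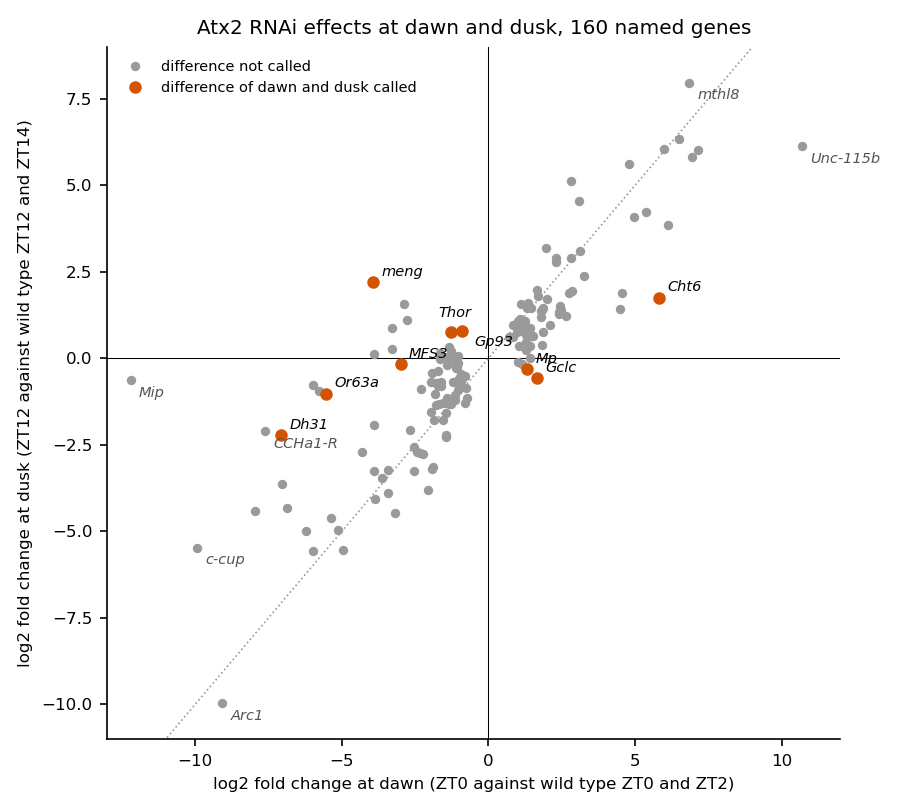
Log2 fold change of *Atx2* RNAi over wild type at dusk (vertical axis) against that at dawn (horizontal axis) for 160 named genes, with the 9 genes whose dawn and dusk effects differed by test in orange and the line of equal effects dotted. Genes were named for their dawn change, so the spread along the horizontal axis is fixed by the choice, and fitted values of genes at 0 in a group, such as *Unc-115b*, depend on the prior count. *meng* was called in opposite directions at dawn and dusk.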

How the data were processed

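The authors quantified reads with kallisto against transcripts of FlyBase release 6.14 and deposited, for each of 30438 transcripts and each sample, an estimated count, not normalized, and a value in TPM. Of these, 30191 transcripts matched a gene of Ensembl release 115, giving 13792 genes, and 247, with 0.234% of the estimated counts, were left out. The estimated counts were summed per gene and rounded, and the deposited TPM values were summed per gene to compare levels between genes. Depth ran from 5216112 to 23507263 estimated counts over 14 samples.

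Genes were tested with edgeR 4.0.16, by its quasi-likelihood method (glmQLFTest; limma 3.58.1, R 4.3.3) with TMM factors, filterByExpr and Benjamini-Hochberg adjustment over the 8643 genes tested. The 8 samples of dawn and dusk were fitted together as 4 groups of 2, so that they shared 1 estimate of the spread. The alternatives were DESeq2 1.42.0 (on 8 or 4 samples), other scalings and filters, other sets of samples, and each sample left out in turn, where the lone sample of a group is assumed to vary like the others. The fit was tested on simulated data, where the share of false calls was above the 0.05 that the adjustment aims for and most 2-fold changes were missed.

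The members and lists were chosen with earlier results of these data known. Named genes were, among called genes whose groups did not overlap, with a mean of at least 50 normalized counts and a symbol, the 8 largest changes and 6 further smallest p in each direction, and up to 4 called members of each of 62 lists (all of them in lists with 6 or fewer), leaving out *Atx2*, *CrebA* and core clock genes. Further called members, *Mip* and the markers *Rh2*, *Arr2* and *Gad1* were named after their values were seen. Summaries and plots used Python 3.11.15, pandas 2.3.3, scipy 1.17.1 and matplotlib 3.10.9.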

Additional observations from a re-analysis of the deposited data

Results flagged for a closer look

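For 9 named genes the effect of *Atx2* RNAi at dawn differed from that at dusk by the interaction test of edgeR (adjusted p under 0.05 over all genes). The dawn minus dusk difference of the log2 fold changes was -6.14 for *meng*, -4.85 for *Dh31*, -4.50 for *Or63a*, -2.83 for *MFS3*, -2.04 for *Thor* and -1.67 for *Gp93*, and it was 4.07 for *Cht6*, 2.24 for *Gclc* and 1.63 for *Mp*, a collagen of the extracellular matrix. *Thor*, the translation inhibitor 4E-BP, had a log2 fold change of -1.28 at dawn and 0.77 at dusk. The dawn and dusk effects each rest on 2 samples a group, and the dawn calls of *Thor* and *Gp93* were lost with some samples left out (adjusted p up to 0.076 and 0.27).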

How the results depend on the processing

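The number of genes called at dawn, 631, was 416 with scaling by library size only and 1126 with no filter on low counts, and it ran from 178 to 796 with each sample left out in turn. DESeq2 (865, or 700 on only the 4 samples), its size factors in edgeR (636), all 14 samples (597), at least 10 counts in each sample (597) and the 4 samples alone in edgeR (457) stayed within 1.5 times the count. The difference of the dawn and dusk effects was called for 64 genes by edgeR and 229 by DESeq2, and the cause was not tested. No named gene reversed its direction in these settings. Of the 160, 70 were called without *Atx2* RNAi replicate 1, 85 without replicate 2, 131 without wild type of ZT0, 96 without wild type of ZT2, 120 of 159 with only the 4 samples and 159 with DESeq2, while 45 lost the call with library size only. No paired analysis was possible because the labels number no wild-type sample as a replicate. With 2 samples a group and 6217170 to 11586874 estimated counts in the 4 samples, a gene that was not called is not shown to be unchanged.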

Other observations

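The share called over all genes was 7.30%, and some gene groups not described above stood beside it. Of 46 tested chemosensory receptors and odorant-binding proteins, 4 were lower (*Or63a*, *Gr39a*, *Gr43a* and *Ir76a*) and 1, *Obp18a*, was higher (10.9% called), and *Or63a* alone kept its call with each sample left out. Of 28 antimicrobial and immune genes, *CecA1* and *Myd88* were lower (7.14%). *CecA1* had no count in either *Atx2* RNAi sample and 25.6 and 33.7 normalized counts in wild type, at least 12-fold lower against the floor of 3 counts in a sample, and its adjusted p of 0.025 was 0.13 without either *Atx2* RNAi replicate. Of 13 extracellular matrix genes, the collagen *Mp* and the peroxidase *Pxn* were higher (15.4%), with 1297 and 1449.8 normalized counts of *Mp* in *Atx2* RNAi and 503 and 594 in wild type.

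The shares called were 9.09% of polyglutamine disease genes and 6.25% of histone and chromatin genes, near the 7.30% of all genes. Of 33 genes of polyglutamine disease and its modifiers, *ubl* was higher (log2 fold change 1.28), and *Lrrk* and *Ubqn* were lower (-1.06 and -0.93). Each of these 3 calls was lost without *Atx2* RNAi replicate 1, with adjusted p of 0.22, 0.23 and 0.23. Of 48 genes of histones and chromatin, the insulator protein *su(Hw)* and the remodelling factor *Acf* were lower and *HDAC4* higher, and none of the 3 was called without *Atx2* RNAi replicate 1.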
